A study of Mus musculus with 10 samples.

Results

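Expression of the genes that build plasma lipoproteins was examined in mouse liver and in liver tumors. The set holds 10 genes, namely the apolipoprotein genes Apoa1, Apoa2, Apoa4, Apoa5, Apob, Apoc1, Apoc3, Apoe and Apoh, and Mttp. They are those entries whose symbol is on this list, out of the 16697 genes of the RNA sequencing table. All 10 were among the 14017 genes tested, which had at least 1 FPKM in at least 3 libraries. FPKM, fragments per kilobase of transcript and per size of the library, scales the reads of a gene to its length and to the size of the library. In the deposited values that size is the read total times a factor that differs between libraries.

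The libraries fall into 3 groups, and values given as a mean ± SD are over the libraries of a group (n = 4, 3 and 3). All 10 are labelled wild type. Normal liver (NL, n = 4) had no injection stated. The c-MYC group (n = 3) holds tumors raised by hydrodynamic tail vein injection, which drives plasmids into hepatocytes, with c-MYC, an empty pT3-EF1α vector and the sleeping beauty transposase that inserts the plasmids into the genome. In the c-MYC/FOXO1AAA group (n = 3), the vector carried FOXO1AAA, a MYC-tagged FOXO1 that stays active because AKT cannot phosphorylate it. The EF1α promoter, which is active in most cell types, drove both transgenes. The labels give the strain as C57BL/6, the extraction protocol and the methods give it as FVB/N, and strain entered no test. The methods state that both sexes were used, and ages are not given in the sources used here. Mice with tumors were taken when the tumor burden required it. Both tumor groups were compared with each other to ask what active FOXO1 changes in these tumors, and each was compared with NL. Those comparisons share libraries, so their values are given side by side and are not independent. The methods give as many mice or livers in each group as there are libraries, and the p-values measure the spread between these libraries.

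Hepatocytes secrete lipids as very low density lipoproteins. Each such particle is wrapped around a single apoB molecule, which the microsomal triglyceride transfer protein, encoded by Mttp, loads with triglyceride in the endoplasmic reticulum. ApoA-I and apoA-II are the main proteins of high density lipoproteins, and the small exchangeable apolipoproteins (apoA-IV, apoA-V, the apoCs and apoE) move between particles, where they steer lipases and receptors. The liver is the main source of most of these proteins, and FOXO1, which insulin signaling inactivates, is known as an activator of Mttp and Apoc3 in hepatocytes.

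Libraries held 13123719 to 20547746 reads in listed genes. The recovered factor on this total was 0.6486 to 0.6838 in NL, 1.2561 to 1.2946 in c-MYC and 1.4537 to 1.5021 in c-MYC/FOXO1AAA. A larger factor gives a lower FPKM for the same share of reads. Foxo1, the gene of the added transgene, stood at 7.17, 6.69, 7.87 and 6.82 FPKM in NL, at 5.26, 6.46 and 5.17 FPKM in c-MYC and at 95.6, 83.6 and 70.1 FPKM in c-MYC/FOXO1AAA, so it was high in the group labelled with it. Mouse Myc gives no such check, because the tumors held only 0.561 to 1.11 FPKM of it and the sources used here do not say whether transgene reads were counted there. All 6 hepatocyte markers (Alb, Ttr, Tat, Cps1, Asgr1 and Trf) were present in NL and lower in both tumor groups. Their summed level was 59907 to 69214 FPKM in NL, 3774 to 6132 in c-MYC and 934 to 1862 in c-MYC/FOXO1AAA. Tumors with FOXO1AAA also held 25.9 ± 8.96 FPKM of the muscle regulator Myog and 110 ± 18.1 FPKM of Acta1, skeletal muscle actin, which were near their floor in NL and c-MYC. The summed level of 5 stellate cell markers was 21.1 to 25.3 FPKM in NL, 3.78 to 10.8 in c-MYC and 81.4 to 90.2 in c-MYC/FOXO1AAA. Most of the last sum was Des (62.7 ± 6.02 FPKM), which muscle also expresses. Of the other markers, Lrat (-3.93) and Rgs5 (-2.65) fell in c-MYC/FOXO1AAA versus NL on the log2 scale. Pdgfrb (2.74) rose there and Reln (0.22) was not called. What muscle or stellate cells add to the values was not tested. In bulk tissue, fewer hepatocytes and less RNA per hepatocyte cannot be told apart.

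Promoter windows, running from 250 bases before to 50 bases after an annotated start, were taken from RefSeq (GRCm38.p6) for 8 of the 10 genes. Apoc1 and Apoc3 were not among them. The windows printed here are those of Apoa1, Apoa4 and Apoa5, neighbors on chromosome 9 whose changes are compared in the account of that cluster, and those of Apoa2 and Apoh, which hold a forkhead factor motif. The RefSeq start of Apoh lies inside its longer GENCODE gene. Capitals mark exact matches, on either strand, to any of 5 motifs, TGTTTAC (forkhead), TGTTTTG (a FOXO variant of it), CAAAGTC (part of an element bound by HNF4α), CACGTG (the E-box bound by MYC) and TATAAA (as in the TATA box). Other forms of these elements were not searched.
Apoa1, chr9:46228380-46228679, plus strand: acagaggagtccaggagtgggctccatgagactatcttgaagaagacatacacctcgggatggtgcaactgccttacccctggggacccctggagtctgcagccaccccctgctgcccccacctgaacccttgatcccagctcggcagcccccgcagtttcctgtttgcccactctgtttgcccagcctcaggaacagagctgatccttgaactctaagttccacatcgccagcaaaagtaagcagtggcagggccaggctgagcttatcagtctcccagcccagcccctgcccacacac
Apoa4, chr9:46240594-46240893, plus strand: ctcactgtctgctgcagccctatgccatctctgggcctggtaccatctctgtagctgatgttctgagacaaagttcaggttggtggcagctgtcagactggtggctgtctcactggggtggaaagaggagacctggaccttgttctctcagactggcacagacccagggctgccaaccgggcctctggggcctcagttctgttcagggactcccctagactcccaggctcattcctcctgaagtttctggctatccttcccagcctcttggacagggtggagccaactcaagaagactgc
Apoa5, chr9:46268358-46268657, plus strand: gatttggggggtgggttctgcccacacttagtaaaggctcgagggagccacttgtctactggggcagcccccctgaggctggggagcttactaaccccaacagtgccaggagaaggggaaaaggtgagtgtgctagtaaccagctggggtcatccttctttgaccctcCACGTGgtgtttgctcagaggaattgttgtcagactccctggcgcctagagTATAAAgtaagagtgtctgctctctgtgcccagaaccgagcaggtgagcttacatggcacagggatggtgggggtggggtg
Apoa2, chr1:171224804-171225103, plus strand: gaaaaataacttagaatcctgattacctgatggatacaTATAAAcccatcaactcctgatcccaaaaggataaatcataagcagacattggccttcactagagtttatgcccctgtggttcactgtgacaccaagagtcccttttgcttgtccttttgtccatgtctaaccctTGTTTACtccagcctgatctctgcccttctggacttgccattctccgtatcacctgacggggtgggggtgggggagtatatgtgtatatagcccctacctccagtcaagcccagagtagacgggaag
Apoh, chr11:108395047-108395346, plus strand: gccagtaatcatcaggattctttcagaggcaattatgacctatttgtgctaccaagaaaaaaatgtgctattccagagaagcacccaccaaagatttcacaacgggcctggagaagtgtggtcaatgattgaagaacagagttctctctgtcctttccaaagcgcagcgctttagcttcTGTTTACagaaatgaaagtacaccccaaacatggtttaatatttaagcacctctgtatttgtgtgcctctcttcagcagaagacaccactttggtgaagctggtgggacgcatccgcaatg

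TGTTTAC occurred in 3 of the 12 windows of these genes (in Apoa2, Apoe and Apoh) and in 3.65% of all 32851 RefSeq windows. TGTTTTG was found only in an Apoe window (6.28% of all windows), and CACGTG only in the overlapping windows of Apoa5 (7.15%). The letters TATAAA were in windows of Apoa2, Apoa5, Apob and Apoe (13.6% of all windows). In the printed windows their first base was at -31 from the start in Apoa5 and at -212 in Apoa2. CAAAGTC was in none of the 12 windows (4.44% of all), and the printed windows of Apoa1 and Apoa4 and the window of Mttp held no match to any of the 5 motifs. These matches describe the letters and were not used in any test.

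In c-MYC tumors, 9 of the 10 genes were lower than in NL and Mttp was not called. The test asked whether a change exceeded 1.5-fold (limma treat, Benjamini-Hochberg adjusted p under 0.05 over all genes tested). By this rule 23.6% of all genes tested were lower and 24.5% higher. The libraries of NL and c-MYC did not overlap for the same 9 genes, as for 73.9% of all genes tested. In c-MYC/FOXO1AAA against c-MYC, 6 of the 10 genes were lower, Mttp among them, Apoa5 and Apoc3 were higher, and Apoa4 and Apoe were not called. Among all genes tested, 12.7% were lower and 15.9% higher in that comparison. The tumor groups did not overlap for 9 of the 10 genes, all but Apoa4, and for 63.4% of all genes tested. Against NL, all 10 genes were lower in c-MYC/FOXO1AAA, where 26.6% of all genes tested were lower and 31.2% higher. No member overlapped between these groups, and 80.1% of all genes tested did not. The median log2 fold change of the 10 genes was -3.67, -2.12 and -5.80 in these 3 comparisons, beside 0.08, 0.03 and 0.21 for all genes tested.

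**Figure D1:**
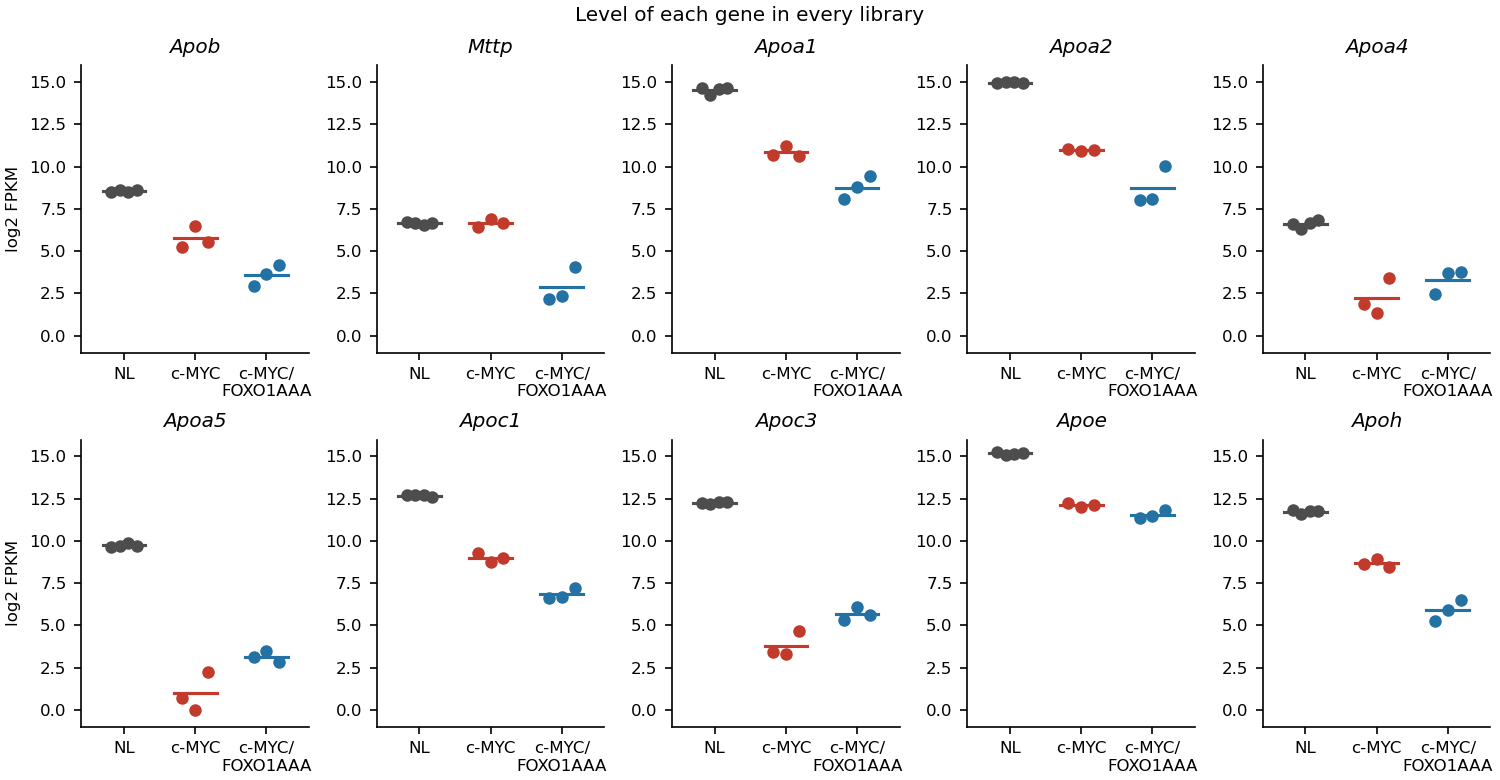
Level of each of the 10 genes in every library, on the log2 FPKM scale of the deposited table, with a point for each library and a line at the mean of each group. NL lies above both tumor groups for 9 genes, Mttp is level in NL and c-MYC and lower in c-MYC/FOXO1AAA, and Apoa5 and Apoc3 lie higher with FOXO1AAA than without it.

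The genes took 6.43% to 7.11% of all reads in the NL libraries, 1.22% to 1.3% in c-MYC and 0.532% to 0.859% in c-MYC/FOXO1AAA. The groups do not overlap in this share. Their summed level was 109472 ± 4464 FPKM in NL, 9516 ± 284 FPKM in c-MYC and 4328 ± 1294 FPKM in c-MYC/FOXO1AAA, which is 8.69% and 3.95% of NL. By mean share of reads, which does not hold the factor on library size, the 10 genes stood at 18.4% and 9.79% of NL. In NL, Apoe ranked 2, Apoa2 ranked 3 and Apoa1 ranked 5 by mean FPKM among all genes. Apoe ranked 8 in c-MYC and 10 in c-MYC/FOXO1AAA, while Apoa1 fell to rank 21 and then 145.

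The order of levels within the set also differed between groups. In NL it ran Apoe, Apoa2, Apoa1, Apoc1, Apoc3, Apoh, Apoa5, Apob, Mttp and Apoa4, and only the libraries of Mttp and Apoa4 overlapped. In c-MYC it ran Apoe, Apoa2, Apoa1, Apoc1, Apoh, Mttp, Apob, Apoc3, Apoa4 and Apoa5. There Apoa2 overlapped Apoa1, Apoc1 overlapped Apoh and Mttp overlapped Apob. Apoc3 also overlapped Apoa4, and Apoa4 overlapped Apoa5. In c-MYC/FOXO1AAA it ran Apoe, Apoa2, Apoa1, Apoc1, Apoh, Apoc3, Apob, Apoa4, Apoa5 and Mttp. Apoa2 overlapped Apoa1 there and Apoh overlapped Apoc3. Further down, Apob overlapped Apoa4, Apoa4 overlapped Apoa5 and Apoa5 overlapped Mttp.

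Apob (chromosome 12, 7977648 to 8016835, plus strand, GRCm38 with GENCODE release M21) encodes the scaffold of very low density lipoproteins. Its libraries held 358, 392, 358 and 397 FPKM in NL, 38.7, 89 and 46.5 FPKM in c-MYC and 7.79, 12.6 and 18 FPKM in c-MYC/FOXO1AAA. The groups do not overlap, and c-MYC 2 was the highest of the c-MYC libraries. The log2 fold change was -2.79 (limma, SE 0.31, adjusted p 7.05e-05) in c-MYC versus NL and -2.17 (limma, SE 0.33, adjusted p 0.0019) in c-MYC/FOXO1AAA versus c-MYC. Mean Apob was thus 15.4% of NL in c-MYC and 3.39% in c-MYC/FOXO1AAA.

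Mttp (chromosome 3, 138089854 to 138144968, minus strand), whose product lipidates apoB, was the exception in c-MYC tumors. It stood at 106, 103, 93.2 and 99.8 FPKM in NL, at 84.5, 119 and 102 FPKM in c-MYC and at 4.5, 5.07 and 16.5 FPKM in c-MYC/FOXO1AAA. NL and c-MYC overlap, and all c-MYC/FOXO1AAA libraries lie below both. The log2 fold change in c-MYC versus NL was 0.01, with a 95% interval of -0.82 to 0.83 and a limma adjusted p of 1. Its sign turned when libraries were set to an equal median (-0.05), and it was 0.93 (limma adjusted p 0.247) when they were set to the same FPKM total, which moved the median of all genes from 0.08 to 1.01. In c-MYC/FOXO1AAA versus c-MYC Mttp fell by 3.80 on the log2 scale (limma, SE 0.40, adjusted p 5.82e-05), the largest fall of the 10 genes, and by 4.40 without c-MYC/FOXO1AAA 3, the library with the highest level of its group. Trmt10a and Gm43691 overlap Mttp on the other strand, and whether counting used strand is not stated.

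The ratio of Mttp to Apob was 0.268 ± 0.0196 in NL, 1.91 ± 0.492 in c-MYC and 0.633 ± 0.261 in c-MYC/FOXO1AAA. It was computed within each library, so a factor applied to a whole library does not change it. The 3 groups do not overlap, with 0.252 to 0.296 in NL, 1.34 to 2.2 in c-MYC and 0.404 to 0.917 in c-MYC/FOXO1AAA.

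Apoa1 (chromosome 9, 46228580 to 46230466, plus strand) encodes apoA-I, the structural protein of high density lipoproteins. The NL libraries held 25876, 19139, 25073 and 25726 FPKM, the c-MYC libraries 1676, 2402 and 1611 FPKM, and the c-MYC/FOXO1AAA libraries 271, 439 and 685 FPKM. No groups overlap, and NL 2 lies below the other NL libraries. The log2 fold change was -3.67 (limma, SE 0.28, adjusted p 2.57e-06) in c-MYC versus NL and -2.11 (limma, SE 0.29, adjusted p 0.00115) in c-MYC/FOXO1AAA versus c-MYC.

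Apoa2 (chromosome 1, 171225054 to 171226379, plus strand) encodes apoA-II of the same particles. It was at 31794, 32897, 32252 and 31353 FPKM in NL, at 2107, 1910 and 2063 FPKM in c-MYC and at 262, 277 and 1058 FPKM in c-MYC/FOXO1AAA. Here c-MYC/FOXO1AAA 3 stood apart from its group, although still below every c-MYC library. Apoa2 changed by -3.99 (limma, SE 0.40, adjusted p 2.04e-05) in c-MYC versus NL and by -2.25 (limma, SE 0.42, adjusted p 0.00653) in c-MYC/FOXO1AAA versus c-MYC, both on the log2 scale. Without c-MYC/FOXO1AAA 3 the latter was -2.91. The ratio of Apoa2 to Apoa1 within libraries was 1.22 to 1.72 in NL, 0.795 to 1.28 in c-MYC and 0.631 to 1.54 in c-MYC/FOXO1AAA, so that the groups overlapped.

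That library was the highest of its group for 8 of the 10 genes, all but Apoa5 and Apoc3, and c-MYC/FOXO1AAA 1 was the lowest for 9. Hnf4a, a nuclear receptor that maintains hepatocyte gene expression, was at 4.67, 5.72 and 11.1 FPKM in the c-MYC/FOXO1AAA libraries in the order of their numbers. It was thus highest in c-MYC/FOXO1AAA 3, where Foxo1 was lowest (95.6, 83.6 and 70.1 FPKM in the same order). Whether these levels go with those of the 10 genes was not tested.

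Apoa4 (chromosome 9, 46240696 to 46243459, plus strand), a component of triglyceride-rich and high density lipoproteins, had the lowest level of the set in NL. It stood at 97.2, 78.2, 101 and 117 FPKM in NL, at 3.73, 2.49 and 10.5 FPKM in c-MYC and at 5.43, 13.3 and 13.3 FPKM in c-MYC/FOXO1AAA. The tumor groups overlap, through c-MYC 3. Apoa4 fell by 4.40 in c-MYC versus NL (log2, limma, SE 0.46, adjusted p 2.67e-05) and its log2 fold change in c-MYC/FOXO1AAA versus c-MYC was 1.10, with a 95% interval of 0.00 to 2.20 and a limma adjusted p of 0.414. Without c-MYC 3 the second value was 1.69 and passed the test (limma adjusted p 0.0302), and the first was -5.00. Antisense genes overlap Apoa4 in the annotation, and without strand their reads could not be told apart.

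Apoa5 (chromosome 9, 46268633 to 46271919, plus strand) encodes apoA-V, which promotes the clearance of triglyceride-rich particles by lipoprotein lipase. The NL libraries held 793, 840, 940 and 829 FPKM, the c-MYC libraries 1.65, 0.992 and 4.81 FPKM, and the c-MYC/FOXO1AAA libraries 8.78, 11 and 7.2 FPKM. The lowest value rests on 41 reads. No groups overlap, and c-MYC 3 is the highest of the c-MYC libraries. The log2 fold change was -8.74 (limma, SE 0.42, adjusted p 5.89e-08) in c-MYC versus NL, the largest fall of the set, and -8.08 with a pseudocount of 1. It was 2.16 (limma, SE 0.45, adjusted p 0.0118) in c-MYC/FOXO1AAA versus c-MYC. Without c-MYC 3 the values were -9.37 and 2.79, and without c-MYC/FOXO1AAA 2 the rise missed the threshold (limma adjusted p 0.0521). Gm47544 overlaps Apoa5 on the other strand.

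Apoc3 (chromosome 9, 46232933 to 46235636, minus strand) encodes apoC-III, an inhibitor of lipoprotein lipase and of particle uptake. It was at 4896, 4613, 4971 and 5000 FPKM in NL, at 10.5, 9.9 and 25.7 FPKM in c-MYC and at 39.9, 68.1 and 49.4 FPKM in c-MYC/FOXO1AAA. Every c-MYC/FOXO1AAA library lies above every c-MYC library and far below NL. Apoc3 changed by -8.45 (limma, SE 0.30, adjusted p 8.9e-09) in c-MYC versus NL and by 1.88 (limma, SE 0.32, adjusted p 0.00581) in c-MYC/FOXO1AAA versus c-MYC, on the log2 scale. Its mean was 0.316% of NL in c-MYC and 1.08% in c-MYC/FOXO1AAA, and that of Apoa5 was 0.292% and 1.06%.

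Of the 6 hepatocyte markers, Tat, a tyrosine-degrading enzyme, rose in the same comparison. It was 0.117% of NL in c-MYC and 0.552% in c-MYC/FOXO1AAA (log2 fold change 2.40, limma adjusted p 0.000607). Its libraries held 0.623, 0.586 and 1.63 FPKM in c-MYC and 3.95, 4.49 and 4.99 FPKM in c-MYC/FOXO1AAA, with c-MYC 3 again the highest of its group. Clec4f, a marker of the resident macrophages of the liver, rose as well, from 2.24% to 8.7% of NL (2.20, limma adjusted p 0.0237). Of the other 7 macrophage markers, Cd5l fell (-2.64, limma adjusted p 0.000598) and 6, Vsig4 (2.49) and Marco (0.88) among them, were not called. Of the other hepatocyte markers, Ttr, Cps1 and Trf fell further, and Alb (-0.28) and Asgr1 (0.98) were not called. The part of remaining normal liver in the values of Apoa5 and Apoc3 was not tested.

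**Figure D2:**
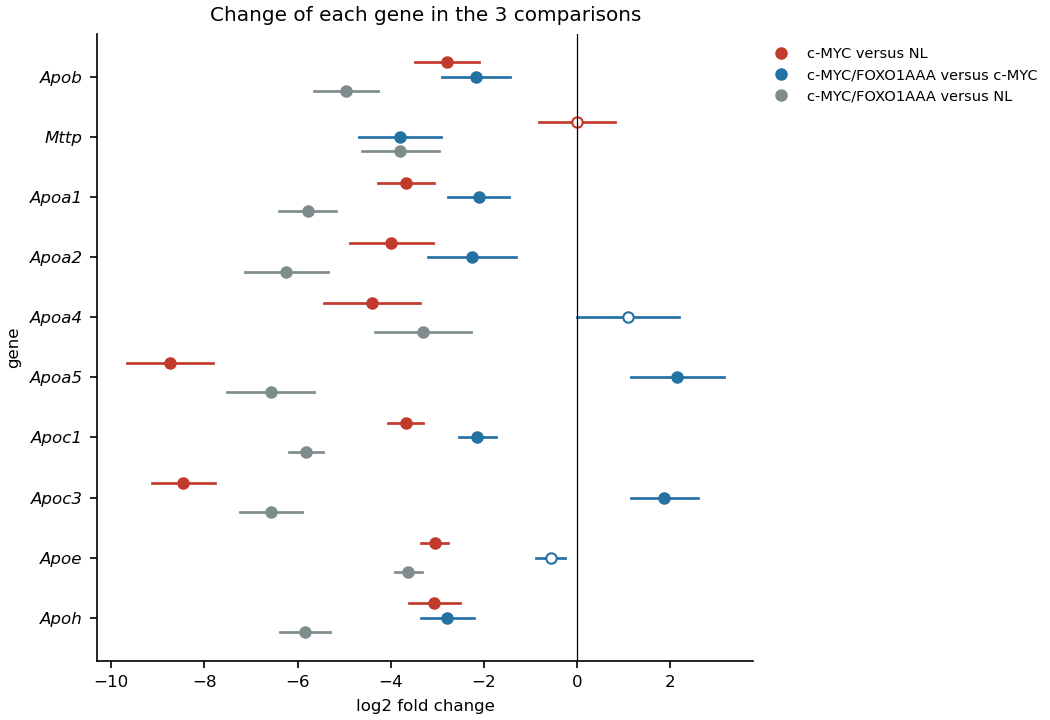
Log2 fold change of each gene in the 3 comparisons, with its 95% interval as a line. Filled points passed the test for a change above 1.5-fold and open points did not. Apoa5 and Apoc3 lie furthest to the left in c-MYC versus NL (-8.74 and -8.45) and are the called genes to the right of 0 in c-MYC/FOXO1AAA versus c-MYC.

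Apoc1 (chromosome 7, 19689481 to 19692660, minus strand) encodes a small apolipoprotein that activates the cholesterol-esterifying enzyme LCAT. Its levels were 6802, 6751, 6626 and 6143 FPKM in NL, 635, 425 and 498 FPKM in c-MYC and 99.7, 104 and 151 FPKM in c-MYC/FOXO1AAA. The groups do not overlap. It fell by 3.68 in c-MYC versus NL (log2, limma, SE 0.17, adjusted p 4.83e-08) and by 2.14 in c-MYC/FOXO1AAA versus c-MYC (limma, SE 0.18, adjusted p 2.74e-05).

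Apoe (chromosome 7, 19696109 to 19699188, minus strand) encodes the ligand through which remnant particles bind the receptors of the LDL receptor family. It stood at 39242, 35383, 35776 and 38178 FPKM in NL, at 4859, 4059 and 4521 FPKM in c-MYC and at 2577, 2896 and 3694 FPKM in c-MYC/FOXO1AAA. Apoe fell by 3.05 in c-MYC versus NL (log2, limma, SE 0.13, adjusted p 4.71e-08). Between the tumor groups the libraries do not overlap, but the log2 fold change of -0.56 (95% interval -0.88 to -0.25) is near the 1.5-fold limit, so that treat gave an adjusted p of 1 and the limma test with no fold threshold gave 0.006.

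Apoe took a larger share of the set in the tumors. It made up 33.9% ± 0.882 of the summed FPKM of the 10 genes in NL, 47.1% ± 3.78 in c-MYC and 72% ± 7.28 in c-MYC/FOXO1AAA. Within libraries, the ratio of Apoe to Apoc1, its neighbor, was 5.24 to 6.22 in NL, 7.66 to 9.56 in c-MYC and 24.5 to 27.9 in c-MYC/FOXO1AAA, and the groups do not overlap.

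Macrophages also make apoE, and their markers moved in both directions. Of 8 such markers, Cd68 (2.34) and Lyz2 (2.30) were higher in c-MYC versus NL, and Clec4f (-5.74), Vsig4 (-5.17) and Marco were lower (4 higher and 2 lower with the same FPKM total). The summed level of the 8 markers was 233 to 383 FPKM in NL, 267 to 300 in c-MYC and 141 to 212 in c-MYC/FOXO1AAA. The part of macrophages in the Apoe level of the tumors was not tested.

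**Figure D3:**
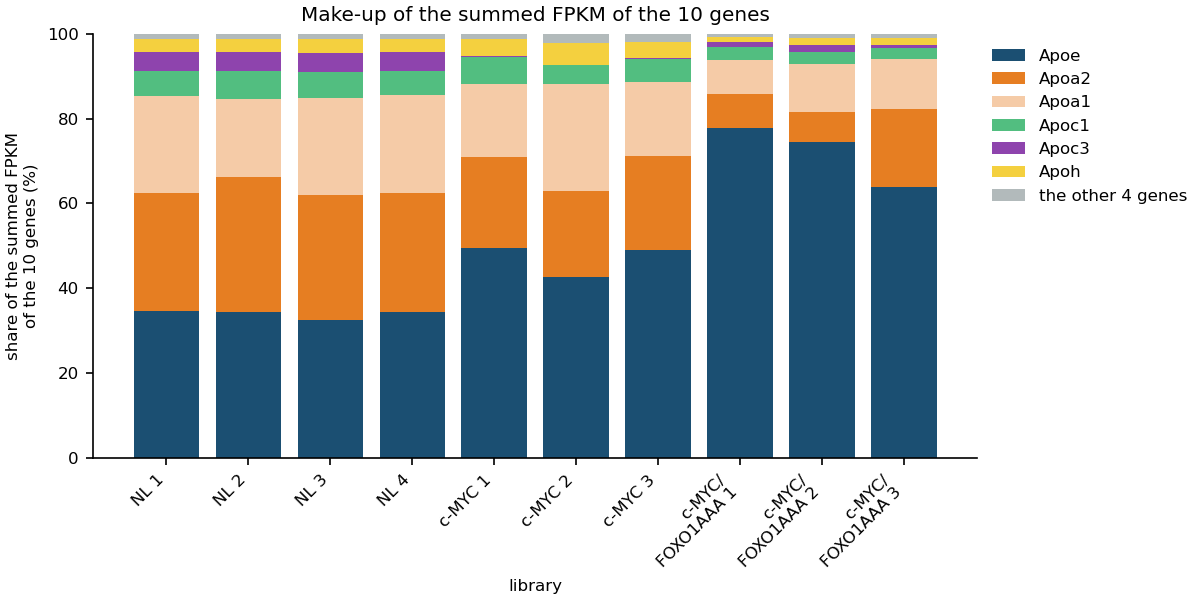
Share of each gene in the summed FPKM of the 10 genes, for every library, as stacked bars that add up to 100%. Apoe takes 32.6% to 34.5% in the NL libraries, 42.7% to 49.5% in c-MYC and 63.9% to 77.8% in c-MYC/FOXO1AAA.

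Apoh (chromosome 11, 108343354 to 108414396, plus strand) encodes β2-glycoprotein I, a plasma protein that binds phospholipids and rides in part on lipoproteins. The NL libraries held 3691, 3042, 3493 and 3467 FPKM, the c-MYC libraries 391, 486 and 357 FPKM, and the c-MYC/FOXO1AAA libraries 38.2, 59.7 and 92.7 FPKM. No groups overlap. The log2 fold change was -3.07 (limma, SE 0.24, adjusted p 4.98e-06) in c-MYC versus NL and -2.78 (limma, SE 0.26, adjusted p 3.91e-05) in c-MYC/FOXO1AAA versus c-MYC. Prkca overlaps Apoh on the other strand in the annotation.

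Scaling set the size of the falls but turned none of those that were called. Quantile normalization, which forces the libraries to the same distribution, gave log2 fold changes in c-MYC versus NL of -1.60 for Apoa1, -1.69 for Apoa2 and -1.08 for Apoe, all still called. Setting each library to the same FPKM total moved the fold changes in that comparison up by about the shift of the median of all genes, to -2.13 for Apoe and -7.81 for Apoa5. In c-MYC/FOXO1AAA versus NL the same scaling gave -2.52 for Apoe and -5.14 for Apoa2, and quantile normalization gave -1.38 and -4.25. In c-MYC/FOXO1AAA versus NL, where log2 fold changes ran from -6.58 (Apoa5) to -3.30 (Apoa4), leaving out c-MYC/FOXO1AAA 3 gave -6.90 for Apoa2 and -4.39 for Mttp.

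Apoa1, Apoc3, Apoa4 and Apoa5 lie side by side on chromosome 9, between Sik3 and Zpr1. Apoa1 and Apoc3 point toward each other with 2466 bases between their annotated ends. In c-MYC versus NL, Apoc3 and Apoa5 had log2 fold changes of -8.45 and -8.74, beside -3.67 for Apoa1 and -4.40 for Apoa4. Whether neighbors differed in their change was not tested. In c-MYC/FOXO1AAA versus c-MYC, Apoa1 was lower and Apoc3 higher. The ratio of Apoa1 to Apoc3 within libraries was 4.15 to 5.29 in NL, 62.6 to 243 in c-MYC and 6.45 to 13.9 in c-MYC/FOXO1AAA, with no overlap. The ratio of Apoc3 to Apoa5, by contrast, was 5.29 to 6.18 in NL, 5.35 to 9.97 in c-MYC and 4.55 to 6.86 in c-MYC/FOXO1AAA, and the groups overlap. The genes on either side had smaller changes. The log2 fold changes of the kinase gene Sik3 were -0.58 and -0.64 in the same comparisons, those of Zpr1, which encodes a zinc finger protein, were -0.32 and 0.03, and those of Bud13, a splicing factor gene, were 0.87 and -0.17. None of the 3 was called in either.

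Apoc1 and Apoe share a cluster on chromosome 7 with Apoc2, whose product activates lipoprotein lipase, and Apoc4. Apoc4 was at 337 ± 22.8 FPKM in NL, 10.8 ± 5.4 FPKM in c-MYC and 8.54 ± 2.63 FPKM in c-MYC/FOXO1AAA, and fell by 5.09 in c-MYC versus NL (limma adjusted p 4.59e-07). Apoc2 had 1.71 ± 0.514 FPKM even in NL. A readthrough gene, Gm44805, overlaps both on the same strand, so their values are uncertain. Tomm40, a mitochondrial import gene next to Apoe, was higher in c-MYC versus NL (1.20, limma adjusted p 0.00135), and Clptm1 on the far side was not called (-0.36). Of 12 tested neighbors of the clusters, 2 were higher and 2 lower in c-MYC versus NL, and 1 was higher and 1 lower in c-MYC/FOXO1AAA versus c-MYC. Of all genes tested, 24.5% were higher and 23.6% lower in the first comparison, and 15.9% and 12.7% in the second. Scaling to equal FPKM totals gave 5 higher and 0 lower neighbors in c-MYC versus NL. With that scaling, 7061 of the 14017 genes tested were higher and 1895 lower.

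**Figure D4:**
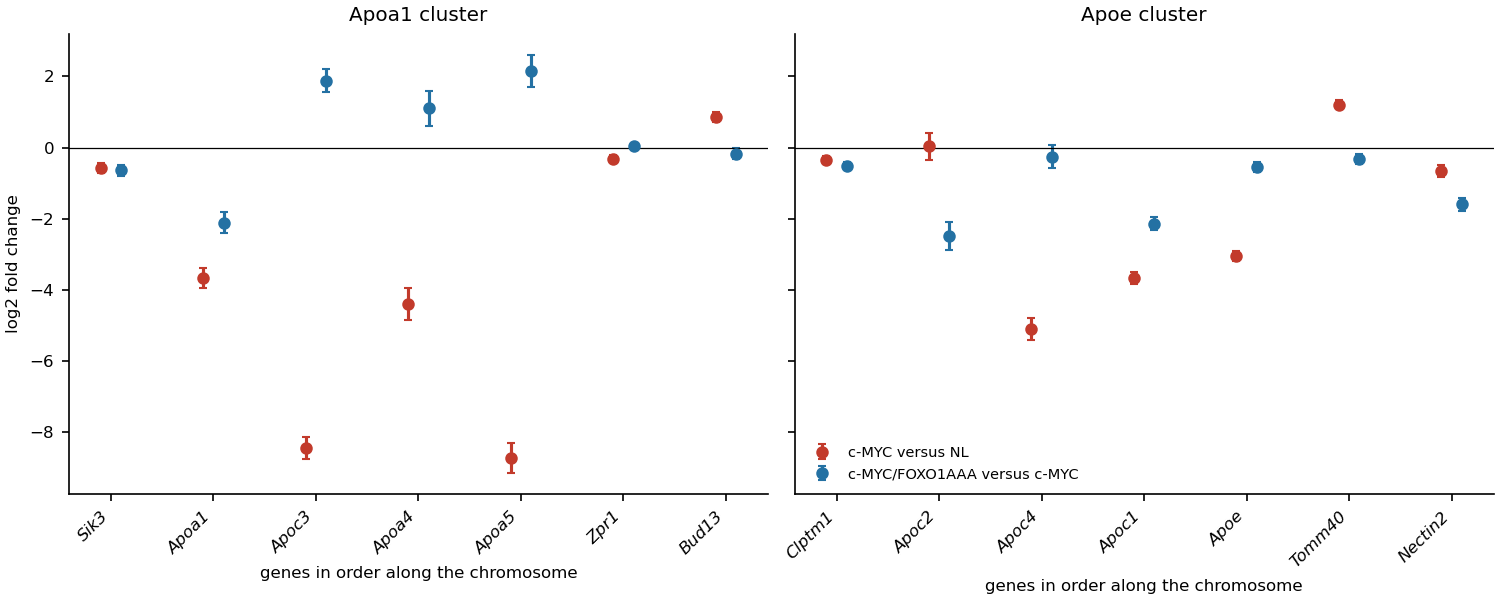
Log2 fold change of the genes of the Apoa1 cluster (chromosome 9) and the Apoe cluster (chromosome 7) and of their neighbors, in their order along the chromosome, with bars of 1 SE. Apoa1 lies at -2.11 and Apoc3 beside it at 1.88 in c-MYC/FOXO1AAA versus c-MYC, while Sik3 and Zpr1 outside the cluster lie within 0.64 of 0 in both comparisons.

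The list of other apolipoproteins held 16 tested genes. It includes the lipid transfer protein gene Pltp, which is also counted below among the genes that remodel particles. Of the 16, 10 were lower and 0 higher in c-MYC versus NL (median -5.15), while c-MYC/FOXO1AAA versus c-MYC had 7 higher and 3 lower (median 0.14). Pltp was not called in either. Beside these counts, 23.6% of all genes tested were lower and 24.5% higher in the former comparison, and 12.7% and 15.9% in the latter. The same shares stand beside the counts of the lists that follow. Where such a count is given with the same FPKM total, 7061 of all 14017 genes tested were higher and 1895 lower in c-MYC versus NL. Clu, which encodes the chaperone apoJ, was at 1312 ± 93.5 FPKM in NL, 27 ± 12.3 FPKM in c-MYC and 188 ± 61.9 FPKM in c-MYC/FOXO1AAA, with log2 fold changes of -5.71 and then 2.86 (limma adjusted p 1.69e-07 and 0.000166). Apon (2.53), Apol9a (2.34), Apol9b (2.32) and the acute-phase genes Saa1 (4.30) and Saa2 (3.35) also rose from low c-MYC levels, although Apol9a and Apol9b, and Saa1 and Saa2, are near copies whose reads may be split. Saa1 held 7, 0 and 22 reads in the c-MYC libraries. Apod had 0 reads in every NL and c-MYC library and 379, 106 and 208 reads in c-MYC/FOXO1AAA. It passed the filter only through that last group, so its place among the 7 higher genes followed from the filter. Its value also enters the median of 0.14.

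Apof, which regulates cholesterol ester transfer, fell in both comparisons, with 717 ± 59.6 FPKM in NL, 71.5 ± 15.2 FPKM in c-MYC and 14.2 ± 5.16 FPKM in c-MYC/FOXO1AAA. It fell by 3.34 and then by 2.39 (limma adjusted p 2.39e-06 and 0.000156). Apom, the carrier of sphingosine 1-phosphate on high density lipoproteins, stood at 296 ± 30.5 FPKM, 230 ± 24 FPKM and 20.6 ± 16.5 FPKM. It was not called in c-MYC versus NL (-0.36, and 0.56 when libraries were set to the same FPKM total) and fell by 3.75 in c-MYC/FOXO1AAA versus c-MYC (limma adjusted p 7.22e-05). Apoo and Apool, mitochondrial proteins despite their names, were not called in either comparison.

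ApoB mRNA is edited in mouse liver from the long to the short form. Apobec1, the deaminase, fell by 1.74 in c-MYC versus NL (limma adjusted p 0.000958), from 7.84 ± 1.28 FPKM to 2.35 ± 0.41 FPKM, and was at 2.03 ± 0.623 FPKM in c-MYC/FOXO1AAA. Its RNA-binding partners, like Mttp, were called lower in c-MYC/FOXO1AAA and not called in c-MYC versus NL. A1cf was at 32.6 ± 4.04 FPKM, 22.6 ± 6.53 FPKM and 1.08 ± 0.64 FPKM, and fell by 4.50 in c-MYC/FOXO1AAA versus c-MYC (limma adjusted p 5.64e-06). Rbm47 was at 35.4 ± 4.01 FPKM, 35.8 ± 2.55 FPKM and 2.16 ± 1.75 FPKM, and fell by 4.45 there (limma adjusted p 0.00011). Editing itself cannot be read from gene totals.

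Genes of particle assembly and lipid supply were lower or not called in c-MYC. Of 25 tested, 12 were lower and 0 higher in c-MYC versus NL, and 13 were lower and 2 higher in c-MYC/FOXO1AAA versus c-MYC (medians -1.08 and -1.04). With libraries set to the same FPKM total, 7 were lower and 2 higher in c-MYC versus NL. Soat2, which makes the cholesterol esters packed into the particle, was at 24.3 ± 1.9 FPKM in NL, 24.5 ± 5.12 FPKM in c-MYC and 2.2 ± 1.96 FPKM in c-MYC/FOXO1AAA. It fell by 3.82 between the tumor groups (limma adjusted p 0.000162). Smlr1 (-3.82) and Pla2g12b (-3.21), both known to be needed for secretion of lipid-rich particles, and the triglyceride synthase Dgat2 (-3.33) fell there as well. In c-MYC versus NL the largest falls were those of the hydrolases Ces1d (-10.05), Ces1g (-8.74) and Aadac (-3.80), which mobilize stored triglyceride, and of Tm6sf2 (-3.68), which promotes lipidation of apoB. Ces1d and Ces1g, like Apoc3, rose in the tumors with FOXO1AAA (2.68 and 2.16), from 0.119% and 0.273% of NL.

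Of 17 genes tested that remodel particles in plasma or move cholesterol to and from them, 12 were lower and 2 higher in c-MYC versus NL, and 5 were lower and 4 higher in c-MYC/FOXO1AAA versus c-MYC. Pon1, an antioxidant enzyme carried by high density lipoproteins, was at 675 ± 25.6 FPKM, 1.42 ± 0.985 FPKM and 6.53 ± 1.06 FPKM. It fell by 9.13 and then rose by 2.42 (limma adjusted p 1.65e-08 and 0.00196). The sterol exporter gene Abcg5 fell by 8.68 and rose by 2.61, from 3, 2 and 17 reads in the c-MYC libraries. The lipase inhibitor Angptl8 (-3.36) and hepatic lipase, Lipc (-2.96), fell in c-MYC/FOXO1AAA versus c-MYC. Lipg, endothelial lipase, held 0, 1 and 1 reads in c-MYC and 52, 33 and 36 in c-MYC/FOXO1AAA.

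Among 14 receptors and their regulators, 6 were lower and 1 higher in c-MYC versus NL (4 and 4 with the same FPKM total). Lrp1, a hepatic receptor for remnants that carry apoE, fell by 3.35 (limma adjusted p 4.74e-07), from 78.9 ± 2.69 FPKM to 7.84 ± 1.51 FPKM. Vldlr, a receptor of triglyceride-rich particles that normal liver holds at a low level, fell by 2.61 in c-MYC versus NL and rose by 3.37 in c-MYC/FOXO1AAA versus c-MYC (limma adjusted p 2.7e-05). In all, 5 of the 14 were lower and 2 higher in the latter comparison.

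Of 23 tested regulators of these genes, 14 were lower and 0 higher in c-MYC versus NL (10 and 2 with the same FPKM total), and 11 were lower and 4 higher in c-MYC/FOXO1AAA versus c-MYC. Those 4 include Foxo1 (3.88), the gene of the added transgene, whose rise was set by the design. Hnf4a, known to bind the promoters of Apoc3, Apob and Mttp, was at 183 ± 14.3 FPKM, 94.4 ± 15.5 FPKM and 7.17 ± 3.47 FPKM. It was not called in c-MYC versus NL (-0.97, limma adjusted p 0.145) and fell by 3.81 in c-MYC/FOXO1AAA versus c-MYC (limma adjusted p 3.13e-06). Nr5a2 (-3.45), a nuclear receptor of bile acid and lipoprotein genes, fell there as well. In c-MYC versus NL the largest falls were those of Nr0b2 (-6.21), Ppargc1a (-5.05), Foxa1 (-4.67) and Rora (-4.26). Foxa1 was at 6.88, 0.0537 and 0.225 FPKM in the c-MYC libraries, so its fall rests on c-MYC 2 and c-MYC 3. What these changes contribute to the levels of the apolipoprotein genes was not tested.

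**Figure D5:**
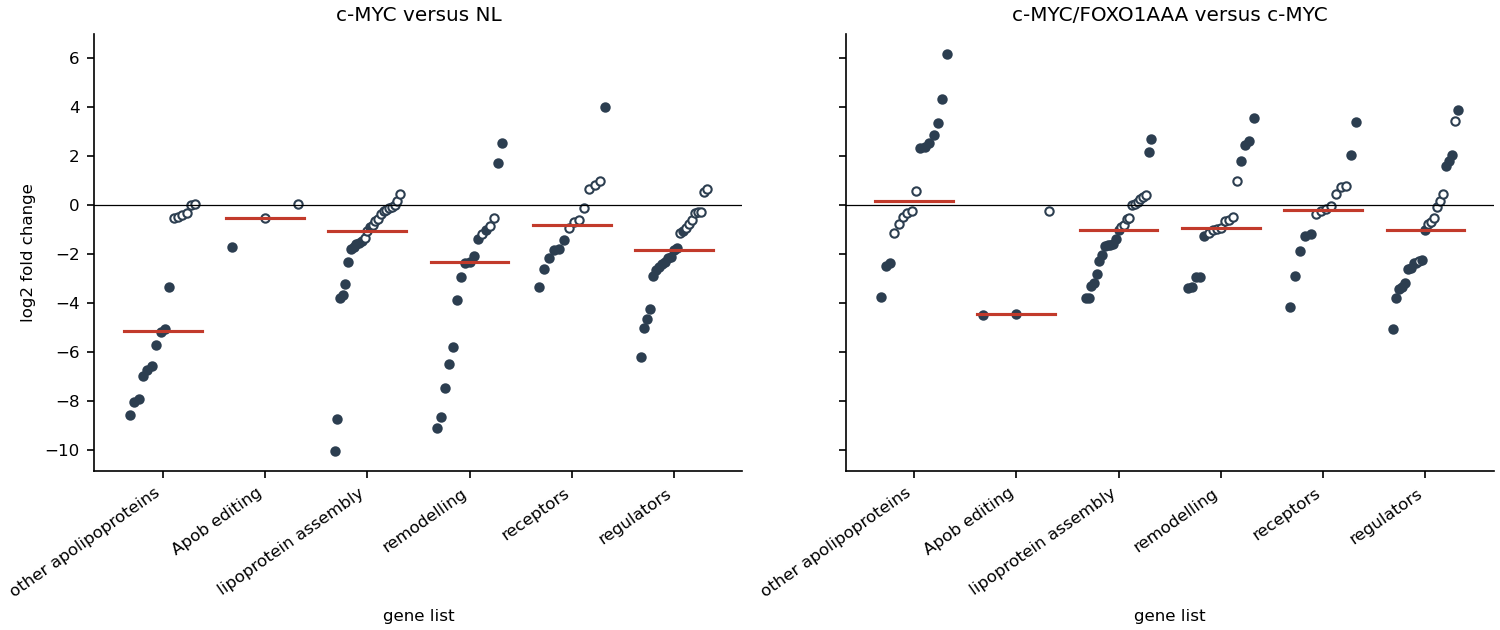
Log2 fold change of every tested gene of 6 related lists in c-MYC versus NL (left) and c-MYC/FOXO1AAA versus c-MYC (right), sorted within each list, with a red line at the median. Filled points passed the test and open points did not. The median of the other apolipoproteins is -5.15 on the left and 0.14 on the right, and that of lipoprotein assembly is -1.08 and -1.04.

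The genes whose pattern was nearest to each member were found by the root mean square difference of log2 FPKM over the 10 libraries, each gene centered on its own mean. Mttp was nearest to Soat2 (0.15), Sgms2 (0.17) and Rassf6 (0.18). Apoa5 was nearest to Cyp4f15 (0.18), Prlr (0.19) and Mfsd4b1 (0.24), and Apoc3 to Slco1b2 (0.22), Mfsd4b1 (0.23) and Pigr (0.26). Apoe was nearest to Lactb (0.1), Apoh to Tfr2 (0.13), Apoa1 to 1300017J02Rik (0.17), Apoc1 to Rbp4 (0.2), Apob to Slc2a2 (0.23), Apoa2 to Arg1 (0.25) and Apoa4 to Fmo2 (0.36). Within the set the closest pair was Apoa5 and Apoc3 (0.29), followed by Apoa1 and Apoh (0.3) and by Apoa1 and Apoc1 (0.34).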

How the data were processed

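RNA was extracted from 4 normal livers, 3 c-MYC tumors and 3 c-MYC/FOXO1AAA tumors, and libraries were made by polyA capture or rRNA removal. Per the methods, the authors counted reads by Ensembl gene, converted identifiers to symbols and used edgeR. The submitters' processing notes name GRCm38 and FastQC 0.11.7, and the aligner and counting tool are not given in the sources used here. The deposited values are log2 FPKM. From the values, the authors had added a prior of 2 counts on average, which scales with library size times the factor given above. It was 1.0627 to 1.308 counts in NL, 2.1733 to 2.231 in c-MYC and 2.3224 to 3.5372 in c-MYC/FOXO1AAA. The FPKM printed here, 2 to the power of the deposited value, include this prior, and fold changes of low genes are understated. Of 17069 entries, 372 hold no values and were left out. Whole reads were recovered from the log2 values by finding, for each gene, the length that gives whole reads in all 10 libraries (a single solution for 99.89% of genes, within 0.002 reads), and served only to give reads, depth and the factor on library size.

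Genes with at least 1 FPKM in at least 3 libraries (14017) were fitted on the deposited log2 values with limma 3.58.1 (R 4.3.3, statmod 1.5.0), all 10 libraries together. The treat test (2-sided, trend and robust estimation on) asked for more than 1.5-fold, and Benjamini-Hochberg adjusted p under 0.05 was called. The members and gene lists were chosen with earlier results of these data known, so no test over a list was made. Every member is named with all its libraries. Of the lists of other apolipoproteins, editing genes and cluster neighbors any tested gene could be named, of the other lists the 4 with the largest change in each of 2 comparisons, besides Foxo1, Hnf4a, Alb and Ttr, while Marco and Myc were named after their values were seen. Some genes that met this rule are not reported here. Positions are those of GENCODE release M21. Alternatives were another pseudocount (1), no filter, 3 scalings, no fold threshold, trend and robust off, a replicate block and each library left out.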

Additional observations from a re-analysis of the deposited data

Results flagged for a closer look

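Apoa1 in NL 2, at 19139 FPKM, lay below the other NL libraries (25073 to 25876 FPKM). The gap to its nearest neighbor was 0.895 of the range of the 4 NL libraries on the log2 scale, above Dixon's 95% critical value for 4 samples. The tumor groups, of 3 libraries each, were not checked in this way, and 1 of the 10 genes checked was past this value, where chance gives about 1 in 20. Apoa1 was also lower in NL 2 than in the other NL libraries as a share of the 10 genes (18.5%), and all c-MYC libraries stayed below it (1611 to 2402 FPKM).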

How the results depend on the processing

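Each gene in each comparison was recomputed under 18 alternatives, and 534 of the 540 values kept their direction and their side of the threshold. Mttp in c-MYC versus NL, with a log2 fold change near 0, turned to -0.05 with an equal median, and ranged from -0.11 (without c-MYC replicate 2) to 0.13 (without c-MYC replicate 1), with -0.03 without NL replicate 3, when each library was left out. Apoe in c-MYC/FOXO1AAA versus c-MYC (-0.56) passed with no fold threshold (adjusted p 0.006). Apoa4 passed there without c-MYC replicate 3 (1.69, adjusted p 0.0302) and Apoa5 did not without c-MYC/FOXO1AAA replicate 2 (adjusted p 0.0521). With no fold threshold, 10432 genes were called in c-MYC versus NL and 7688 in c-MYC/FOXO1AAA versus c-MYC, in place of 6740 and 4016. Scaling to the same FPKM total gave 7061 higher and 1895 lower genes in c-MYC versus NL, against 3435 and 3305.

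Leaving out each library in turn gave 6280 to 6672, 2879 to 4015 and 6963 to 8145 genes called in c-MYC versus NL, c-MYC/FOXO1AAA versus c-MYC and c-MYC/FOXO1AAA versus NL, with 9, 7 to 9 and 10 of the 10 genes. The replicate numbers did not pair the libraries (correlations of -0.04 to 0.03, 0 of 10 best matched their own number). With the replicate block, 6407, 3852 and 7810 genes and 9, 8 and 10 of the 10 genes were called. With 3 libraries in each tumor group, a change near 1.5-fold could not be placed beyond that limit by treat.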
